A study of Homo sapiens with 6 samples.

Results

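The small proline-rich (SPRR) genes form 1 cluster within the epidermal differentiation complex of chromosome 1, and the 10 genes described here are SPRR1A, SPRR1B, SPRR2A, SPRR2B, SPRR2D, SPRR2E, SPRR2F, SPRR2G, SPRR3 and SPRR4. They were taken from the array table by their symbols, as 10 of 81496 gene symbols, and each symbol had 1 probe set. The family was chosen with an earlier result of this comparison in view, in which SPRR2D led the increases, so the differences between the lines are given below as a description of the members and not as a test of the family.

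SPRR proteins are short, repetitive precursors of the cornified envelope, the protein shell that replaces the plasma membrane of squamous epithelial cells as they cornify. Transglutaminases cross-link them to each other and to larger precursors such as involucrin and loricrin. SPRR1 and SPRR2 genes are also known to be induced in stressed, wounded or inflamed epithelium outside the skin, and SPRR3 is typical of the oesophagus and other moist squamous linings.

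The study asked which transcripts change when breast epithelial cells acquire resistance to fluvastatin, a statin that inhibits HMG-CoA reductase in the cholesterol pathway. Total RNA was hybridised to Clariom D arrays, with 3 biological replicates per line. MCF10.AT1 is a preneoplastic, HRAS-transformed line that belongs to the MCF10A progression series of human mammary epithelium, and its samples were labelled untreated and fluvastatin sensitive. MCF10.AT1-R is a single line derived from it, labelled fluvastatin resistant, which was grown in fluvastatin raised from 1 µM through 5 µM to 20 µM. Both lines were grown in the same medium. The labels attach the fluvastatin text to all 6 samples, and whether the drug was present when the cells were harvested is not given in the sources used here. The cell type label reads breast cancer for both lines.

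Values are log2 expression values made by RMA, a method that corrects background, normalizes between arrays and summarises the probes of a transcript. The comparison used the 5 arrays kept in the study, A01 and A02 of MCF10.AT1 and B02, B03 and B04 of MCF10.AT1-R. The third MCF10.AT1 array, A03, correlated with the other arrays at 0.779 to 0.795 over all transcripts, against 0.967 to 0.977 among the other 5, and its 4 hybridisation controls averaged 5.99 against 10.35 to 11.33, so its values are given apart. A level is called above the negative controls when it exceeds 2.99, the mean over the 5 arrays of the 95th percentile of 612 negative control probe sets. All 7 markers of basal breast epithelium, KRT5, KRT14 and TP63 among them, were above this level on all 5 arrays. Of 3 leukocyte markers CD3E and CD68 were above it and PTPRC below it on all 5. Among luminal markers KRT8, KRT18, KRT19, GATA3 and FOXA1 were above it on all 5, and the hormone receptor gene PGR was below it on all 5. The endothelial markers PECAM1 and VWF and the fibroblast markers COL1A1 and COL3A1 were also above it on all 5. This level alone therefore does not tell cell types apart.

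Of the 10 SPRR genes, 5 were past an FDR of 5% in limma's fit over all probe sets, each with its higher level in the resistant line. They were SPRR1A, SPRR2A, SPRR2B, SPRR2D and SPRR2E. Over the whole array 1.2% of the 51457 probe sets tested were past the same threshold, 0.758% higher and 0.447% lower. Because the family was chosen on this comparison, nothing is read from the gap between these shares. In 9 of the 10 genes the lowest MCF10.AT1-R array exceeded the highest MCF10.AT1 array, a pattern shown by 12.2% of all transcript probe sets, and SPRR4 was the exception. The median difference of the 10 genes was 1.58 on the log2 scale, against 0.01 over all transcript probe sets. Raising every value to the level of the negative controls brought the median of the 10 genes to 0.97.

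**Figure D1:**
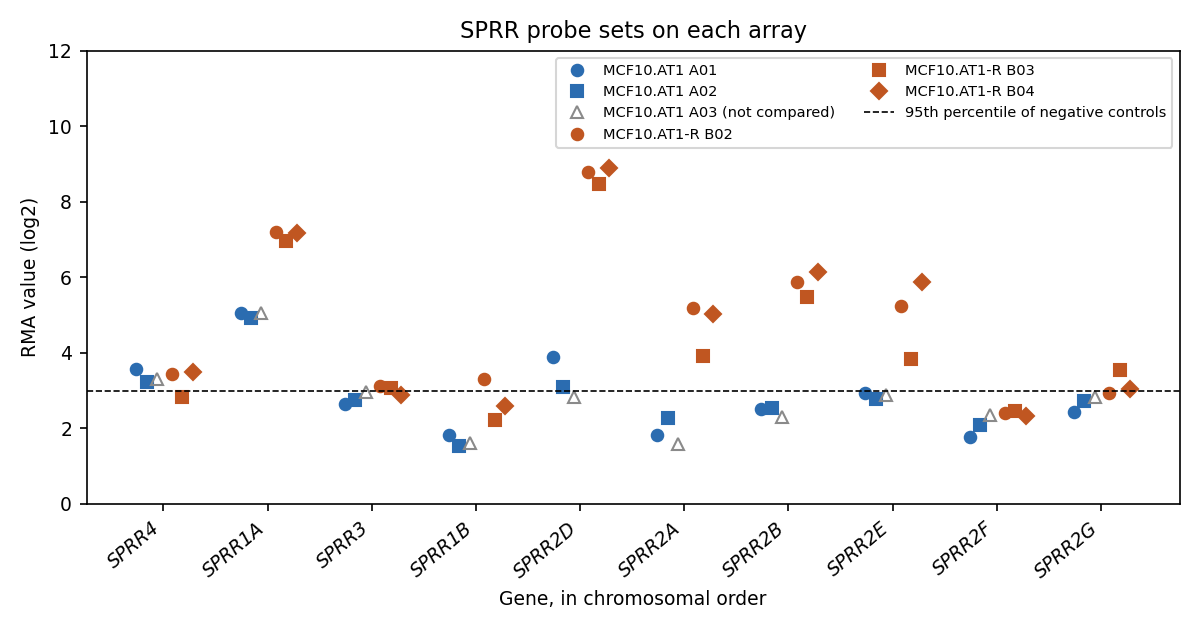
Log2 RMA value (y axis) of each SPRR probe set on each of the 6 arrays, with genes in chromosomal order (x axis) and the 95th percentile of the negative controls, 2.99, as a dashed line. SPRR2D reaches 8.46 to 8.89 on the MCF10.AT1-R arrays, while the values of SPRR2F stay under the dashed line on every array.

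SPRR2 genes encode short envelope precursors and are the most numerous subfamily. SPRR2D read 3.90 and 3.09 on the MCF10.AT1 arrays and 8.79, 8.46 and 8.89 on the MCF10.AT1-R arrays. The lines were far apart and the arrays of MCF10.AT1-R lay close together. The MCF10.AT1 arrays differed by 0.81, and A02 lay only just above the negative control level. When 1 array was left out, the log2 difference ran from 4.81 to 5.62. The difference in its log2 level was 5.22 (SE 0.31, 95% interval 4.61 to 5.83), which is a 37.2-fold higher signal, and it was the highest of the 620 probe sets past the threshold.

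SPRR2B read 2.50 and 2.55 in MCF10.AT1, under the negative control level, and 5.87, 5.49 and 6.14 in MCF10.AT1-R. The groups did not overlap, and the log2 difference was 3.31 (95% interval 2.70 to 3.92). Since both MCF10.AT1 values lay within the negative controls, the signal is better given as at least 7.17-fold higher in MCF10.AT1-R. Such a bound concerns the negative control level alone and leaves out the spread between arrays.

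SPRR2A read 1.82 and 2.26 in MCF10.AT1 and 5.19, 3.93 and 5.04 in MCF10.AT1-R. All 3 MCF10.AT1-R arrays were above the negative controls and neither MCF10.AT1 array was. Its log2 difference was 2.68 (95% interval 2.07 to 3.29), and against the negative control level the signal was at least 3.31-fold higher. With values raised to that level the difference was 1.73 (SE 0.41), and SPRR2A was not past the threshold.

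SPRR2E read 2.95 and 2.77 in MCF10.AT1 and 5.24, 3.85 and 5.88 in MCF10.AT1-R. It had the widest spread of the family, 2.04 log2 units between the lowest and highest MCF10.AT1-R arrays, yet array B03, its lowest, was still above both MCF10.AT1 arrays. The log2 difference was 2.13 (95% interval 1.52 to 2.74), or at least 3.996-fold higher against the negative control level. With values raised to that level the difference was 2.00 (SE 0.62), and SPRR2E was not past the threshold.

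The remaining SPRR2 genes were at or near the negative controls in both lines. SPRR2F read 1.76 and 2.10 in MCF10.AT1 and 2.42, 2.46 and 2.33 in MCF10.AT1-R, so that no array was above the negative control level and no fold is given. SPRR2G read 2.44 and 2.74 against 2.94, 3.55 and 3.05, with a log2 difference of 0.60 (95% interval -0.02 to 1.21). The signal of SPRR2G thus passed the negative control level on 2 of 3 MCF10.AT1-R arrays and on neither MCF10.AT1 array. The SPRR2C pseudogene, which lies between these genes and is not counted with the 10, was below the negative controls on all arrays and differed by 0.77. The coding sequences of SPRR2 genes are closely alike, and probes that match several of them could let the signal of one gene enter the value of another, which was not tested.

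SPRR1A and SPRR1B encode the SPRR1 precursors, also called cornifins. SPRR1A was above the negative controls in both lines, at 5.05 and 4.92 in MCF10.AT1 and at 7.21, 6.97 and 7.16 in MCF10.AT1-R. The replicates of each line lay within a narrow band, and the log2 difference of 2.13 (95% interval 1.52 to 2.75) is a 4.39-fold higher signal. SPRR1B read 1.83 and 1.53 in MCF10.AT1 and 3.31, 2.24 and 2.60 in MCF10.AT1-R. Only B02 was above the negative controls for SPRR1B, and the difference of 1.03 (95% interval 0.42 to 1.65), which was not past the threshold, became 0.11 when values were raised to the negative control level.

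SPRR3, the member typical of moist squamous linings, read 2.64 and 2.75 in MCF10.AT1 and 3.13, 3.07 and 2.87 in MCF10.AT1-R, all close to the negative controls. Its log2 difference was 0.33 (95% interval -0.28 to 0.94). SPRR4, the neighbour of SPRR1A, read 3.59 and 3.23 in MCF10.AT1 and 3.43, 2.82 and 3.49 in MCF10.AT1-R. Its arrays overlapped, and the difference was -0.16 (95% interval -0.77 to 0.45). Levels so close to the negative controls leave little room to measure a difference in SPRR3.

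**Figure D2:**
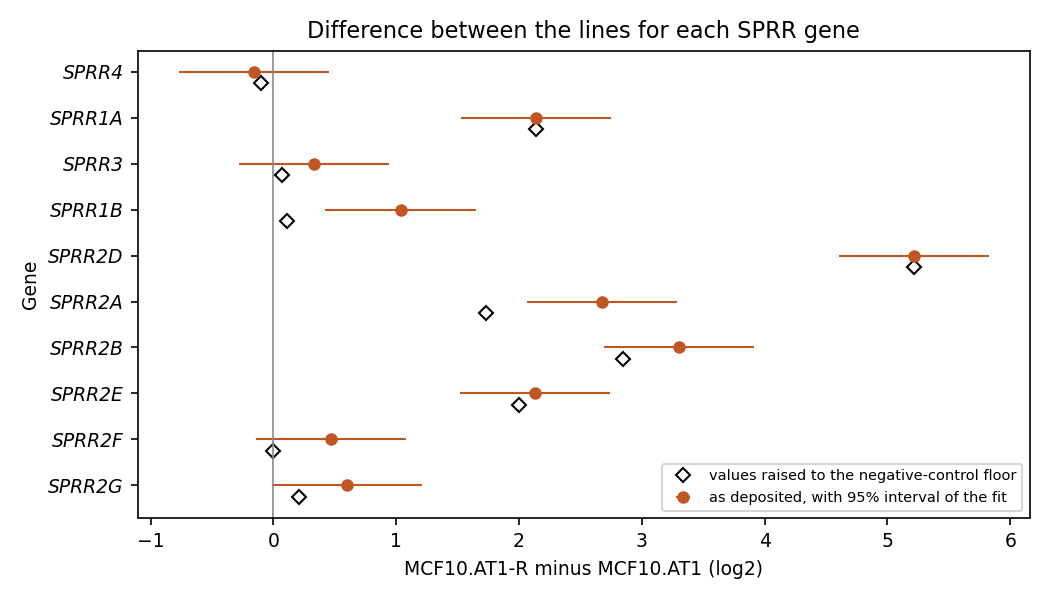
Log2 difference of MCF10.AT1-R (3 arrays) minus MCF10.AT1 (2 arrays) for each SPRR gene (y axis, in chromosomal order), as filled circles with the 95% interval of the fit, and as open diamonds after values were raised to the negative control level. SPRR2D lies at 5.22 by both measures, while SPRR1B moves from 1.03 to 0.11.

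In MCF10.AT1-R 5 of the 10 genes were above the negative controls on all 3 arrays, and they were the same 5 that passed the threshold. In MCF10.AT1 3 genes, SPRR1A, SPRR2D and SPRR4, were above them on both arrays. The shares over all transcript probe sets were 23.2% for MCF10.AT1-R and 24.8% for MCF10.AT1. The arrays carry RNA of whole cultures, so a larger share of cells expressing a gene and more RNA per cell cannot be told apart.

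The 10 genes did not differ equally between the arrays of the resistant line. The mean of the family was 4.75 on B02, 4.28 on B03 and 4.75 on B04, against 2.85 on A01 and 2.80 on A02. B03 gave the lowest of the 3 values for 7 of the 10 genes and for all 5 genes above the negative controls. It was also lowest for 35.1% of all transcript probe sets and for 52.6% of the 390 called higher, and its hybridisation controls averaged 11.33, the highest of the arrays, whose part in the result was not tested. The fit used 1 common SD of 0.34 for every probe set. That is narrower than the spread of SPRR2E (residual SD 0.85), SPRR2A (0.59), SPRR1B (0.46) and SPRR2D (0.38), which their intervals do not use. Against the common SE of 0.312, the SE without a filter was larger for SPRR2E (0.496) and SPRR2A (0.367). It was not larger for SPRR1B (0.308) and SPRR2D (0.271).

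The count of 5 genes rested on the arrays and filters used. With A03 added to the MCF10.AT1 arrays only SPRR2B and SPRR2D were past the threshold, where 0.0447% of all probe sets tested were. The differences of the 3 genes that lost their call were 2.11 for SPRR1A, 2.83 for SPRR2A and 2.12 for SPRR2E in that fit, and the median of the 10 genes was 1.58 as before. With a filter on level alone, where 0.268% of all probe sets tested were called, or with values raised to the negative control level, where 0.6% were, the called genes were SPRR1A, SPRR2B and SPRR2D. Without any filter 4 genes were called, all but SPRR2E, against 0.13% of all probe sets. SPRR2B and SPRR2D were past the threshold in all 14 alternatives, of which 5 leave out 1 array. On A03 itself SPRR1A read 5.05 and SPRR2D 2.83, and its 10 values differed from the means of A01 and A02 by -0.67 to 0.43.

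In RefSeq gene order the 10 genes are neighbours, with no other protein-coding gene between them, and lie between SPRR5, which is not analysed here, and LELP1, in the order SPRR4, SPRR1A, SPRR3, SPRR1B, SPRR2D, SPRR2A, SPRR2B, SPRR2E, SPRR2F and SPRR2G. The 4 adjacent genes from SPRR2D to SPRR2E were all past the threshold, and SPRR1A was the other. Within this order SPRR3 and SPRR1B, which were not called, lay between called genes.

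RefSeq start sites with upstream sequence were matched for 8 of the 10 genes, all except SPRR2D and SPRR2E. The 250 bases before each start site were searched on both strands for motifs of factors known from squamous epithelium. The sequences of SPRR1A, SPRR1B, SPRR2A, SPRR2B and SPRR2F are shown because they hold the called genes SPRR1A, SPRR2A and SPRR2B next to their close relatives SPRR1B and SPRR2F, whose levels stayed at or near the negative controls in most arrays. They are from RefSeq on GRCh38.p14, written 5′ to 3′ on the strand of the gene, and capitals mark matches to the AP-1 motif TGANTCA, the ETS motif AGGAAG and the octamer ATGCAAA on either strand. SPRR1A is chr1:152983831-152984080 on the plus strand, SPRR1B chr1:153030953-153031202 on the plus strand, SPRR2A chr1:153057513-153057762 on the minus strand, SPRR2B chr1:153071612-153071861 on the minus strand, and SPRR2F chr1:153113517-153113766 on the minus strand.
SPRR1A: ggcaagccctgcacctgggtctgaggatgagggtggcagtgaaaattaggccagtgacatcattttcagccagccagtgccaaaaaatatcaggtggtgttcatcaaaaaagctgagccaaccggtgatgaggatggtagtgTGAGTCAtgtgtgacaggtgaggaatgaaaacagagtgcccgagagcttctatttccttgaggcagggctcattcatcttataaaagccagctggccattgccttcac
SPRR1B: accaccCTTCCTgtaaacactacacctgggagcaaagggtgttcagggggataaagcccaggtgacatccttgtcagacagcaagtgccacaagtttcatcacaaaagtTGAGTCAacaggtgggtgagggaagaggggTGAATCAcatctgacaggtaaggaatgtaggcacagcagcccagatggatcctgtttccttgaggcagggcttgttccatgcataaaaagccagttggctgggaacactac
SPRR2A: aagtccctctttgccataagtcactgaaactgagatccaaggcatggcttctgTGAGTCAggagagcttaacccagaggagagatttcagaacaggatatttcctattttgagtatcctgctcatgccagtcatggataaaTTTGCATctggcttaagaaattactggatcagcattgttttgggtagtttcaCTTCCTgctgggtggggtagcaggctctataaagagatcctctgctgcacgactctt
SPRR2B: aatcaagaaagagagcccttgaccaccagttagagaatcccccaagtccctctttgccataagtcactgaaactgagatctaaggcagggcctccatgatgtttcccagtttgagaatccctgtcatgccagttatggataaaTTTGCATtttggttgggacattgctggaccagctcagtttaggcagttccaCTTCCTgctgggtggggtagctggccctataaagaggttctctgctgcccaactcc
SPRR2F: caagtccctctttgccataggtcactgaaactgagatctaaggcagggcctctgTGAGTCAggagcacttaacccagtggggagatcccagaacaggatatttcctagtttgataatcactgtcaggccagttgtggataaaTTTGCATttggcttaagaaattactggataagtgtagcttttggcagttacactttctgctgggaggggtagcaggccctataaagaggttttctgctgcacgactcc

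The AP-1 motif, bound by dimers of FOS and JUN proteins, was present in 6 of the 8 sequences (SPRR1A, SPRR1B, SPRR2A, SPRR2F, SPRR2G and SPRR3) and in 6.57% of 35116 promoters of the same length. SPRR2B was called and held no AP-1 match, while SPRR2F held one and stayed within the negative controls. The octamer, bound by POU factors, was present in SPRR2A, SPRR2B and SPRR2F, 3 of the 8, and in 3.94% of all promoters. The ETS motif was present in 5 of the 8 (SPRR1B, SPRR2A, SPRR2B, SPRR3 and SPRR4) and in 28.7% of all promoters. Of these 5 genes SPRR2A and SPRR2B were called and the other 3 were not, while the called SPRR1A held no match to AGGAAG. No other form of the ETS motif was searched. The sequence of SPRR2F, which also held no match to AGGAAG, was 85.7% identical to that of SPRR2A over 252 aligned positions.

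A TATA motif (TATAAA) was found in 7 of the 8 sequences, all but SPRR1B, and in 10.7% of all promoters. The KLF-type motif CACCC was in 6 of the 8 and in 54.7% of all promoters. One KLF-type match overlapped an AP-1 match and another an ETS match, both in SPRR1B. The GRHL motif AACCGGT was in SPRR1A alone and in 0.626% of all promoters. The CRE motif TGACGT and the NRF2-type motif TGACNNNGC were in none of the 8, against 7.1% and 10.9% of all promoters. A match is a run of letters and not a measured binding site. The called genes SPRR2D and SPRR2E had no sequence to search, and the part of any motif in the SPRR differences was not tested.

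**Figure D3:**
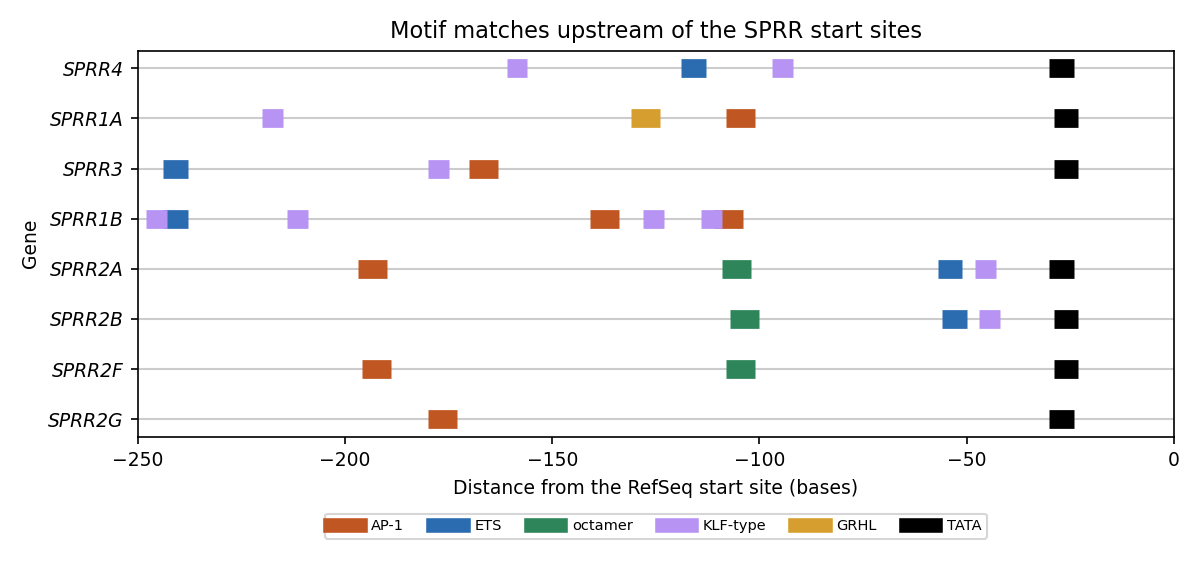
Motif matches in the 250 bases upstream of the RefSeq start site of 8 SPRR genes (y axis, in chromosomal order), by distance from the start site in bases (x axis). Coloured blocks are AP-1, ETS, octamer, KLF-type, GRHL and TATA matches, and SPRR2A and SPRR2B share the ETS, KLF-type and TATA blocks nearest the start site.

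Of 34 other genes of the epidermal differentiation complex, outside the SPRR and S100 families, 22 passed the filters and 2 were past FDR 5%, both higher. The share over all probe sets tested was 1.2%, with 0.758% higher. IVL encodes involucrin, an early scaffold of the envelope to which SPRR proteins are joined, and lies near the SPRR cluster. It read 3.58 and 3.44 in MCF10.AT1 and 6.83, 6.27 and 7.13 in MCF10.AT1-R, with no overlap between the lines. Its log2 difference was 3.23 (SE 0.31, limma adjusted p = 9.2e-22). CRCT1, a small cysteine-rich gene of the same complex, read 2.01 and 2.04 against 3.84, 3.84 and 3.99, so that it was above the negative controls in MCF10.AT1-R alone. Its log2 difference was 1.86 (limma adjusted p = 1.0e-06), and against the negative control level its signal was at least 1.86-fold higher.

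Many genes of the complex that act late in cornification were at or below the negative controls, where a difference cannot be measured. FLG, which encodes filaggrin, was below the negative controls on all 5 arrays, and LORICRIN was above them on 1 of 3 MCF10.AT1-R and 1 of 2 MCF10.AT1 arrays. None of the 14 tested genes of the 18 late cornified envelope (LCE) genes was past FDR 5% in limma's fit, with 1 at an unadjusted p under 0.05 and 0 past FDR 5% with limma's trend option, and the log2 differences of the 18 ran from -0.67 to 0.43. Of the 18 LCE genes 9 were above the negative controls on all 5 arrays. The median difference of the 34 genes was 0.01, against 1.58 for the SPRR genes. Of the 34, 7 were higher without overlap and 2 lower without overlap, against 12.2% and 11.1% of all transcript probe sets.

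The complex also holds the S100 genes, which encode small calcium-binding proteins. Of 16, 11 passed the filters and 2 were past FDR 5%, as were 1.2% of all probe sets tested. With limma's trend option 6 were past it, 5 of them higher, against 2.68% of all probe sets tested. Of the 16, 11 were higher without overlap and 1 lower, against 12.2% and 11.1% of all transcript probe sets. S100A8, a subunit of calprotectin, read 2.08 and 1.43 in MCF10.AT1 and 4.71, 4.19 and 5.02 in MCF10.AT1-R, a log2 difference of 2.89 and a signal at least 3.13-fold higher against the negative control level. S100A8 passed the level filter through its MCF10.AT1-R arrays, since its MCF10.AT1 mean of 1.75 was under the limit of 1.88, so its p-value is not given, and it lost its call with values raised to the negative control level. S100A4 fell by 1.65 on the log2 scale, from 6.49 and 6.15 to 5.02, 4.36 and 4.63 (limma adjusted p = 3.3e-05), and S100A4 lost its call without any filter (limma adjusted p = 0.071).

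**Figure D4:**
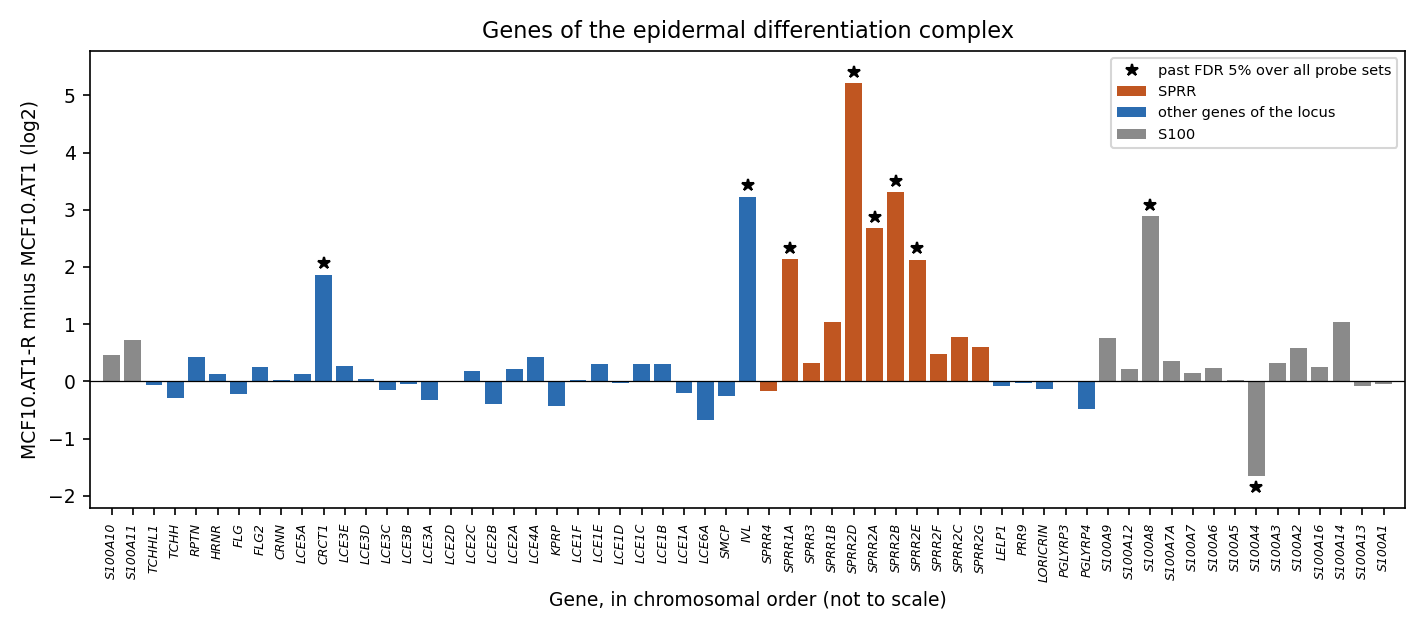
Log2 difference of MCF10.AT1-R (3 arrays) minus MCF10.AT1 (2 arrays) (y axis) for the SPRR genes, with the SPRR2C pseudogene, in orange, S100 genes in grey and the other listed genes of the complex in blue, in RefSeq order and not to scale (x axis). Stars mark genes past FDR 5% over all probe sets, which are 5 SPRR genes, IVL, CRCT1, S100A8 and S100A4.

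Among 11 enzymes and partners that build the envelope, 9 passed the filters and 4 were past FDR 5%, all higher. Over all probe sets tested 1.2% were past it, 0.758% higher. Of the 11, 6 were higher without overlap and 0 lower, against 12.2% and 11.1% of all transcript probe sets. PI3, or elafin, a protease inhibitor cross-linked into the envelope, rose from 4.13 and 3.84 to 6.10, 6.13 and 6.11, a log2 difference of 2.13 (limma adjusted p = 6.1e-09). CSTA, the envelope precursor cystatin A, rose by 1.76 (limma adjusted p = 6.6e-06). The desmosome genes DSP, which encodes desmoplakin, and CDSN, which encodes corneodesmosin, rose by 1.41 (limma adjusted p = 0.0011) and 1.14 (limma adjusted p = 0.027). DSP and CDSN each lost the call when A01 or A02 was left out, and CDSN also without B02 or without B04.

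The cross-linking enzymes themselves were not past the threshold. TGM1, the main transglutaminase of keratinocytes, was below the negative controls on all 5 arrays, with a log2 difference of -0.09. TGM2 differed by 0.24, TGM3 by -0.42 and TGM5 by -0.23. The median difference of the 11 genes was 0.25.

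Of 23 transcription factors linked to squamous differentiation, 17 passed the filters and 3 were past FDR 5%, all higher. Among all probe sets tested 1.2% were past it, 0.758% higher. Of the 23, 13 were higher without overlap and 3 lower, against 12.2% and 11.1% of all transcript probe sets. The called factors included TP63, the master regulator of stratified epithelium, and EHF, an epithelial ETS factor. TP63 rose from 4.55 and 4.08 to 5.97, 6.20 and 6.03, by 1.74 (limma adjusted p = 8.1e-06). EHF rose from 3.85 and 3.72 to 5.72, 5.33 and 5.47, by 1.72 (limma adjusted p = 1.3e-05).

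Several factors that bind the motifs searched were not past the threshold. Among the AP-1 genes JUN differed by 0.44, FOSL1 by 0.35, FOSB by -0.06 and JUNB by -0.39. FOSL2 (0.09), JUND (-0.02) and FOS (-0.15) did not pass the filters. The POU factor POU2F3 differed by 0.47, the ETS factor ELF3 by -0.14, GRHL3 by 0.86 and KLF4 by -0.82. The median difference of the 23 genes was 0.35. With A03 added to the MCF10.AT1 arrays, 10 of the 11 genes called in the lists of neighbours, S100 genes, partners and factors lost their call in limma's fit, all but IVL, where 0.0447% of all probe sets tested were called. In that fit EHF differed by 1.95 (SE 0.34), TP63 by 1.89 (SE 0.32), PI3 by 2.46 (SE 0.37) and CSTA by 3.01 (SE 0.91). S100A4, which read 2.42 on A03, differed by -0.35 (SE 0.95).

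Lists of cell type markers were compared between the same arrays. Called here means past FDR 5%, as were 1.2% of all probe sets tested, 0.758% higher and 0.447% lower. Of all transcript probe sets 12.2% were higher without overlap. The 7 markers of basal epithelium were all above the negative controls. Their summed log2 level was 49.7 to 49.9 in MCF10.AT1 and 63.2 to 63.8 in MCF10.AT1-R. All 7 were higher without overlap and 5 of them were called. The called markers included KRT17, higher by 4.08, KRT14 by 2.37, TP63 by 1.74 and KRT5 by 1.71. Of 7 luminal markers 2 were called, KRT19, higher by 2.91, and KRT8, higher by 1.11, the latter not called without a filter. Altogether 4 of the 7 were higher without overlap, KRT18 (by 0.85) among them. The median difference of the 7 was 0.18. The list summed to 36.8 and 37.1 in MCF10.AT1 and to 40.7 to 42.1 in MCF10.AT1-R. Of 6 markers of cornifying keratinocytes 2 were called, CDSN and KRT1, the latter higher by 1.10, neither of them called without a filter. Altogether 4 of the 6 were higher without overlap, KRT2 and KRT10 being the others. The list summed to 18.6 on both MCF10.AT1 arrays and to 20.9 to 22.6 on the MCF10.AT1-R arrays. In MCF10.AT1-R 4 of the 6 were above the negative controls on all 3 arrays. FLG stayed under them on all 5 arrays, and LORICRIN was above them on 1 array of each line. The 5 fibroblast markers summed to 21.2 to 21.5 in MCF10.AT1 and 18.7 to 19.5 in MCF10.AT1-R. DCN fell by 2.15, while LUM and PDGFRB were below the negative controls on all 5 arrays. COL1A1 and COL3A1 were above the negative controls on all 5 and differed by 0.15 and -0.16. The part of these shifts in the SPRR differences was not tested.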

How the data were processed

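Clariom D arrays measured total RNA of both lines. The deposited values are log2 RMA levels, which the authors computed with the Bioconductor packages affy and oligo, over all 6 arrays and without a filter. Array names give the line, by the legend of the study's principal component plot, but no replicate number of the labels. The 2995 control probe sets were set apart, which left 135750. Probe sets entered the comparison when their mean over the 5 arrays exceeded the median (1.88) and their SD the lowest 25% (0.18), which left 51457. The fit used limma 3.58.1 (lmFit, eBayes; R 4.3.3), and p-values were adjusted by Benjamini-Hochberg. All 10 SPRR genes passed. SPRR1B passed through its MCF10.AT1-R arrays, since its MCF10.AT1 mean of 1.68 was under the level limit. The SD over the 5 arrays includes the difference between the lines. Called genes with a residual SD under the SD limit passed it through that difference. Among them were DSP (0.036), CRCT1 (0.072), SPRR1A (0.116), PI3 (0.121), EHF (0.170) and CSTA (0.171). Their calls and p-values after the filter are to be read beside those without a filter.

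Members and lists were chosen with earlier results of these data known. Genes named are the 10 members, up to 5 called genes each way per list, the 5 genes most like the family, and others named after their values were seen, and a few genes that this rule names are counted but their values are not reported here. Bounds used the mean 95th percentile of the negative controls. They are differences of means and do not cover the spread between arrays. Upstream sequences were compared with Biopython 1.88. The scripts were tested on simulated data. The number of arrays limits the precision, and p-values cover only the spread between these arrays, pooled over probe sets. With 1 common SD, a p-value does not use the spread of its own gene. Without a filter, limma adjusted p-values were 0.0042 for IVL, 0.0094 for CRCT1, 0.0057 for PI3 and 0.020 for CSTA. They were 0.033 for DSP, 0.26 for CDSN, 0.028 for TP63 and 0.023 for EHF. The sources used here do not name a genome build for the array table, so no coordinates of probe sets are given.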

Additional observations from a re-analysis of the deposited data

Results flagged for a closer look

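SPRR1A read 5.05 on A03, the MCF10.AT1 array left out of the comparison, which is above the negative controls of that array (95th percentile 3.15) and next to the 5.05 and 4.92 of A01 and A02. It was picked out because it is a reading above the negative controls in an array that the comparison did not use. Some genes with high levels on A01 and A02 read far lower on A03, such as KRT5 (8.80 and 8.74 against 3.87) and S100A2 (11.61 and 11.70 against 6.28). Others read much the same, such as LCE1E (8.26 and 8.31 against 8.11). What the SPRR1A reading on A03 stands for was not tested.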

How the results depend on the processing

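The count of probe sets past FDR 5%, 620 as reported, was 26 with A03 added to the MCF10.AT1 arrays, 1377 with a variance that follows the level, 177 without a filter, 182 with a filter on level alone, 272 with values raised to the negative control level, and 271 to 595 when 1 array was left out, with 271 without A02 and 314 without A01. The SPRR count of 5 was 2 with A03, 3 with the filter on level alone, 3 with the raised values and 5 to 6 when 1 array was left out. The median SPRR difference of 1.58 was 0.97 with raised values and 1.37 to 1.74 when 1 array was left out. With A03, 1 other gene of the complex, 0 envelope partners and 0 transcription factors were called by limma (5 and 6 at an unadjusted p under 0.05, no other tool run), and 5 transcription factors with the variance that follows the level. Envelope partners called numbered 2 to 4 when 1 array was left out, with 2 without A01 and 2 without A02. The difference of SPRR4 turned positive without A01 (0.016) and without B03 (0.052). The cause of these shifts was not tested.

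Each array's own percentile of the negative controls, an alternative chosen after seeing the data, put 6 SPRR genes above them on all MCF10.AT1-R arrays instead of 5. No paired analysis was possible because the array names carry no replicate number of the labels. Levels near the negative controls, as for SPRR1B, SPRR2F, SPRR2G and SPRR3, limit what could be detected.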

Other observations

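Outside the family, the genes whose values over the 5 arrays were among the most like the mean of the 10 SPRR genes, by the root mean square difference of centred log2 values among 81485 symbols, were the polo-like kinase gene PLK2 (0.0822), the adhesion molecule gene CEACAM6 (0.105), EHF (0.111) and the keratin gene KRT6B (0.115). PLK2 read 6.51 and 6.50 in MCF10.AT1 and 8.26, 8.04 and 8.39 in MCF10.AT1-R. KRT6B read 8.44 and 8.47 in MCF10.AT1 and 10.29, 10.15 and 10.48 in MCF10.AT1-R. With 5 arrays in 2 lines, this likeness is a description of these arrays.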
